A study of Homo sapiens with 14 samples.

Results

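The complement genes of cultured human lung fibroblasts were followed through every deposited RNA-seq table: C3, C1R, C1S, CFB, CFD, CFI, CD55, CD59 and SERPING1. These 9 genes were taken by name as complement components and regulators, by a rule that uses no measured value, although earlier results of these data were known. All 9 had a row among the 24638 genes listed in all 3 kinds of table. The cells were IMR90, primary human fetal lung fibroblasts, grown as the isolates I79 and I10. The I79 young, I79 old, I10 young and I10 old groups were proliferating cells and cells passaged until they stopped dividing, and each of these groups had 1 table of estimated counts, although the labels list 2 replicates for it. The I79 ICM group held 2 libraries of I79 cells given inflachromene (ICM), an inhibitor of HMGB1 and HMGB2, which are DNA-bending proteins of chromatin. The WT and HMGB2 KD groups held 2 libraries each, of wild-type cells and of cells in which HMGB2 was knocked down with siRNA. The labels gave no dose or duration for ICM and did not name the isolate used for the knockdown. A control siRNA in WT cells was not mentioned there either. All groups were cultures of 1 line, so the libraries measured the spread between cultures or preparations and not between people.

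Complement is a cascade of plasma proteases that tags targets for removal and can end in a pore in their membrane. C1R and C1S are the serine proteases of the first component and open the classical pathway, CFB and the protease CFD build the alternative pathway convertase, and C3 is the protein on which all routes meet. The cascade is held back by SERPING1 (C1 inhibitor), which inactivates C1R and C1S, by CFI, a protease that cuts activated C3 and C4, by CD55 on the cell surface, which speeds the decay of convertases, and by CD59 on the cell surface, which blocks pore assembly. The liver makes most of the plasma proteins, but fibroblasts also transcribe many of these genes.

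Promoter sequence is shown for CD55 and CFI, the members that passed the test between old and young cells, and for CD59, the member with the highest level per transcript length in every library. The RefSeq table of promoters (GRCh38.p14) held 10 windows for 6 members, namely C1R, CFB, CFI, CFD, CD55 and CD59, and C3, C1S and SERPING1 had none. Each sequence below is the 250 bases upstream of an annotated start, read 5′ to 3′ on the strand of the gene. Capitals mark every match, on either strand, to any of 8 motifs. The Sp1 box was searched as GGGCGG. The site of the C/EBP factors, which drive acute phase genes, was searched as TTNNGNAA. For the AP-1 site of the Jun and Fos proteins the letters were TGANTCA. The core of the interferon-stimulated response element was searched as GAAANNGAA and GAS, a site of STAT factors, as TTCNNNGAA. The core of the cAMP response element was TGACG in this search. The TATA box, which positions the polymerase, was searched as TATAAA. The last motif was the NF-kB consensus. The C/EBP, interferon and GAS letters can overlap one another.
CD55, chr1:207321428-207321677, plus strand: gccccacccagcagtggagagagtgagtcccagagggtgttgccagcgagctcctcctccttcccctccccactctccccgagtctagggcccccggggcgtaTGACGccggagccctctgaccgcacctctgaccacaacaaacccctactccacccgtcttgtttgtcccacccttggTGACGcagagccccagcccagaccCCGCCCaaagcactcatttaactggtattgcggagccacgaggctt
CFI, chr4:109802000-109802249, minus strand: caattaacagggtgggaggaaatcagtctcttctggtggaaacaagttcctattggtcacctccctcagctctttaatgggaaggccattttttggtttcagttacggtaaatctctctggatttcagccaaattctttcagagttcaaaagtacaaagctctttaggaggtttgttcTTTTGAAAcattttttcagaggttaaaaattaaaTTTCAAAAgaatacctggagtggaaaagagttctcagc
CD59, chr11:33736480-33736729, minus strand: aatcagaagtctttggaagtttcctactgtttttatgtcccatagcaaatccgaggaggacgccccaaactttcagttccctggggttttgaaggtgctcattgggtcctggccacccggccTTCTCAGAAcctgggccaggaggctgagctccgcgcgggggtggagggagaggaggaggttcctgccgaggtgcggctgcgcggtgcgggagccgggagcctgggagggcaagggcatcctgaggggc

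The CD55 window held 1 Sp1 box and 2 cores of the cAMP response element, the CFI window held 2 C/EBP matches, and the printed CD59 window, the first of its 4 in the table, held 1 GAS match. The other CD59 windows held 2 Sp1 boxes and a GAS match, 2 C/EBP matches, and 2 AP-1 matches. The window with the Sp1 boxes overlaps the printed one, and its GAS match is the same stretch of bases. Over all 35114 windows of the same length in the table, 42.6% held the Sp1 letters, 21.2% the cAMP core, 33.2% the C/EBP letters and 6.57% the GAS letters. The 4 other motifs had no match in the 3 printed windows, and they were held by 6.57% (AP-1), 6.88% (interferon core), 10.7% (TATA box) and 5.21% (NF-kB) of all windows. The CFI window was AT-rich, with 38% G and C against a median of 58% over all windows and 64% for CD55. Among members without a printed sequence, the CFB window held a TATA box that began 30 bases before the start, a GAS match and an interferon core.

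Library depth ranged from 14991385 to 20632959 estimated reads in the old and young tables, was 13290131 and 10971132 reads in the ICM libraries, and ranged from 33561766 to 41168932 gene counts in the WT and HMGB2 KD libraries. The targeted gene was checked first. The 2 WT libraries had 27.1 and 27.3 CPM of HMGB2 (counts per 1000000 counts on genes, with library sizes scaled by edgeR's TMM factors), and both HMGB2 KD libraries were lower, at 3.22 and 3.64, a log2 fold change of -2.99 (SE 0.16, edgeR quasi-likelihood test, adjusted p = 8.28e-07). In old against young cells, LMNB1, a nuclear lamina gene that is lost in senescence, fell by 2.86 on the log2 scale and CDKN1A, a cell cycle inhibitor, rose by 2.48 (edgeR adjusted p = 0.00357 and 0.00418). The fibroblast marker list summed to between 35217 and 46464 CPM in the old and young tables, 28245 and 50403 CPM in the WT and HMGB2 KD libraries, and 15112 and 15476 CPM in the ICM libraries. COL1A1, on that list, was at 3013 CPM or more in all. S100A4, also on that list, was low throughout, from 16.4 CPM at most in the old and young tables down to 0.854 CPM in an ICM library. Of the leukocyte, hepatocyte, epithelium and endothelium lists, the leukocyte list reached 160.8 CPM through CD68 and the endothelium list 224.2 CPM through TEK, while their defining markers PTPRC, EPCAM, ALB and CDH5 were at or under 0.716 CPM in every library. The hepatocyte list summed to at most 7.97 CPM and the epithelium list to at most 0.988 CPM. CDH5 had no read in any library. In bulk RNA, fewer cells of a type and less RNA per cell cannot be told apart.

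Levels per transcript length spanned several orders of magnitude, and on this scale CD59 stood highest of the 9 members in all libraries. The scale was CPM divided by transcript length in kilobases and rescaled over the shared genes. Young and old I79 cells had 759 and 992 of CD59, young and old I10 cells 801 and 1142. The gene stood at 593 and 569 in the ICM libraries, at 708 and 856 in WT and 1110 and 1062 in HMGB2 KD, on this per-length scale. C1R and C1S followed in the old and young tables, with per-length levels of 510 to 700.0 for C1R and 296 to 373 for C1S, so C1R exceeded C1S in all 4 tables. In the ICM libraries this order was turned, with 204 and 233 for C1R and 254 and 279 for C1S. The ICM libraries were counted in another way but divided by lengths from the old and young tables. What that difference adds to the turned order was not tested. SERPING1 (33.6 to 221) and CD55 (19.6 to 149) formed a middle tier in the old and young tables, CFB lay at 8.74 to 15.1, and C3 ranged from 1.41 to 29.7. CFD (1.25 to 2.17) and CFI (0.0455 to 3.50) were the lowest. Neighbours in this order were not tested against each other. The plot of levels per length has 1 column per gene. Its CD59 column is the highest for each group, and the C3 column is spread over several orders of magnitude.

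**Figure D1:**
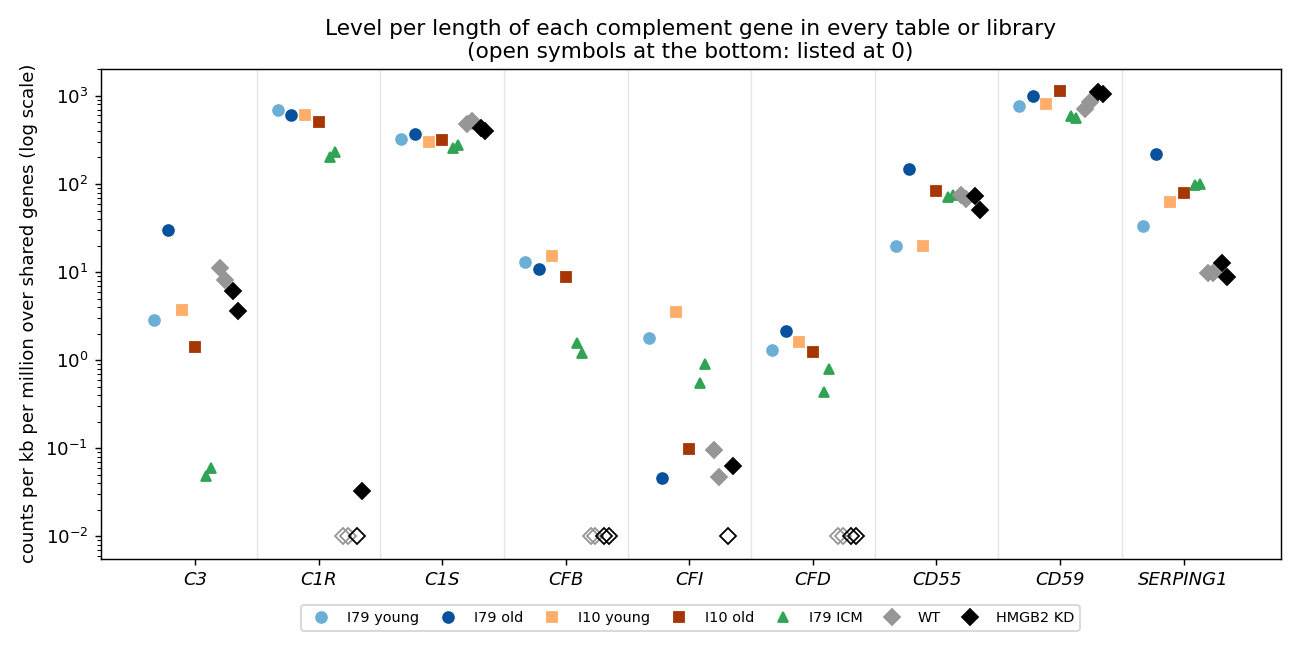
Level per transcript length of each of the 9 complement genes, as length-scaled CPM over the shared genes on a log axis, with 1 point per table or library coloured by group. CD59 lies between 569 and 1142 throughout, while C3 runs from 29.7 in I79 old down to 0.0490 in an ICM library. Open symbols at the bottom are libraries in which the gene was listed at 0.

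Several members had no usable row in the WT and HMGB2 KD libraries. C1R was listed at 0, 0, 0 and 1 counts and CFB and CFD at 0 in all 4, while C1R had between 7259 and 8470.5 estimated counts in the old and young tables. The C1R neighbours C1RL, CLSTN3 and PEX5 were also at 0 or 1 count in these 4 libraries, and C1RL had between 596 and 924 estimated counts in the old and young tables. Of 9327 protein-coding genes with 100 or more estimated counts in every old and young table, 195 (2.09%) were at 0 or 1 in all WT and HMGB2 KD libraries, against 26 of 82 (31.7%) within 3 Mb of CFB on chromosome 6. No fold against WT is given for C1R, CFB or CFD for this reason. CFI was listed at 4 and 2 counts in WT and 0 and 3 in HMGB2 KD, too few for a test.

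The first comparison asked which complement genes differ between replicatively aged and proliferating fibroblasts. Over both isolates, CD55 rose and CFI fell in old cells, and the other 7 members did not pass the thresholds (adjusted p under 0.01 with a log2 fold change beyond 0.6 either way). CD55 was higher in old cells of both isolates and CFI lower in both. That is 1 of 9 members called higher, where 5.75% of the 15115 tested genes were, and 1 of 9 called lower, where 3.82% were. The test was edgeR's quasi-likelihood test with the isolate as a covariate and 1 residual degree of freedom. The median log2 fold change of the 9 members was 0.39, beside -0.01 over all tested genes. The plot of young and old cells shows slopes of the same sign in both isolates for every member except C3 and CFD, and a much steeper SERPING1 line in I79 than in I10.

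**Figure D2:**
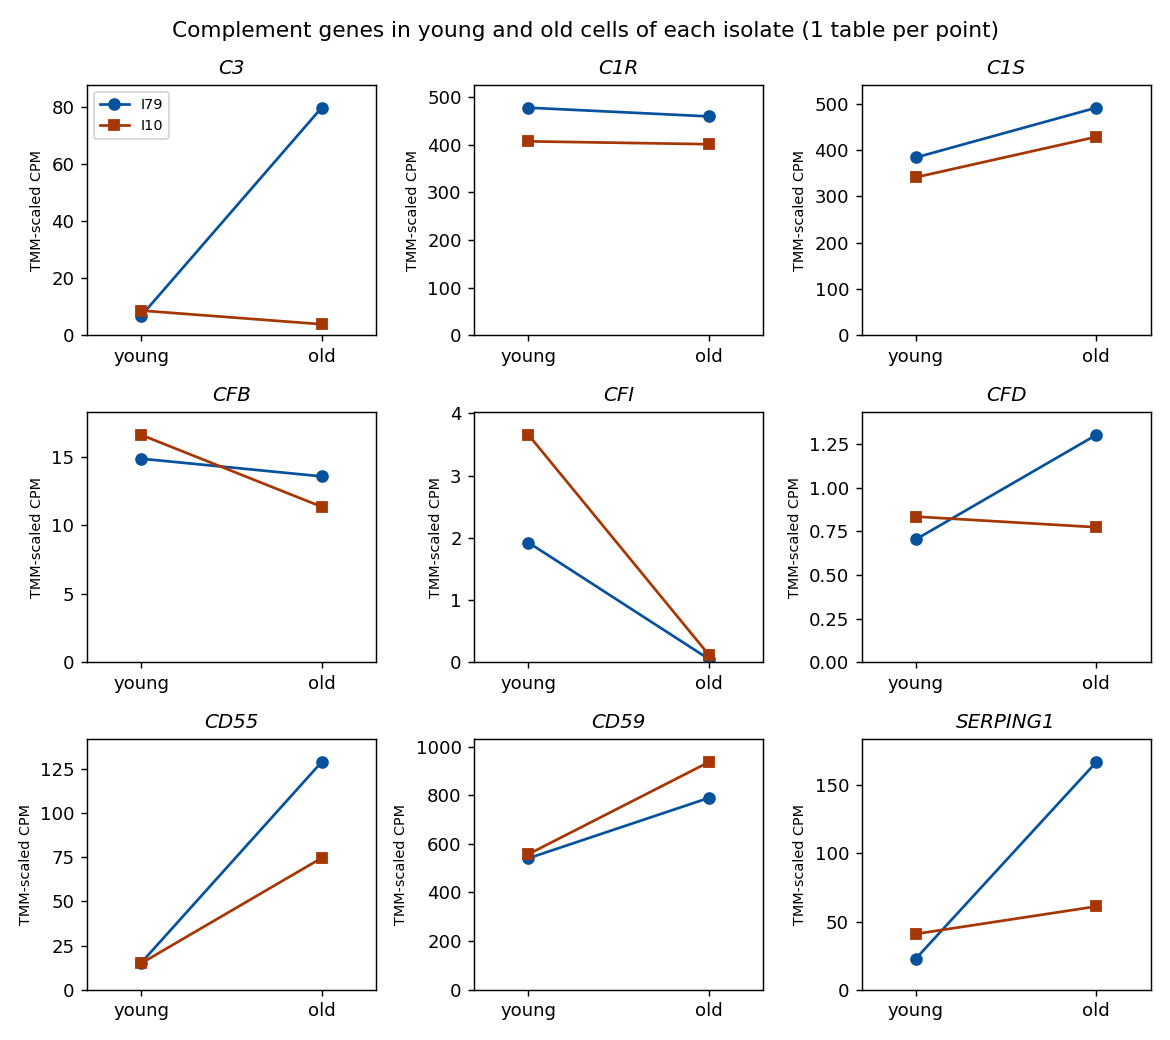
TMM-scaled CPM of each complement gene in young and old cells, with 1 point per deposited table and a line joining the tables of I79 (circles) and I10 (squares). CD55 is higher and CFI lower in old cells of both isolates, and C3 is higher in I79 old and lower in I10 old.

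CD55 (chr1:207494864-207560149 in GRCh37, decay-accelerating factor) went from 237 estimated counts in young I79 cells to 2376 in old ones, and from 286 to 1349 in I10. On the TMM-scaled scale these were 15.2, 129, 14.9 and 74.6 CPM. Both old tables lay far above both young ones, and the young tables of the isolates were nearly equal. How many of the 15115 tested genes had both old tables on the same side of both young ones was not counted. With so few tables, such a separation only describes the values, here and for the members below. The log2 fold change was 2.70 (SE 0.21, edgeR adjusted p = 0.00418), a 6.51-fold rise. Within isolates the ratio was 8.50-fold in I79 (log2 3.09, exact 95% counting interval 2.89 to 3.29) and 4.998-fold in I10 (log2 2.32, interval 2.14 to 2.51). No other annotated gene overlaps CD55 in the GRCh37 annotation used here. All counting intervals cover counting error only and not the spread between cultures.

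CFI (chr4:110652164-110723306 in GRCh37, complement factor I) had 30.1 estimated counts in I79 young and 1 in I79 old, and 70.1 in I10 young and 2.18 in I10 old. These equal 1.93, 0.0543, 3.66 and 0.120 CPM, so both old tables were close to 0. The fitted log2 fold change was -4.97 (SE 0.54, edgeR adjusted p = 0.00639), a value that depends on the prior count because the old tables hold so few reads. The ratio of the counts themselves was log2 -5.15 in I79 (exact 95% counting interval -10.5 to -2.56) and log2 -5.05 in I10 (interval -8.12 to -3.14). CFI overlaps the annotated gene ENSG00000285330, and reads can be shared between them.

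The other surface regulator, CD59 (chr11:33724556-33758025 in GRCh37), had 8450.3 and 14551 estimated counts in young and old I79 cells and 10694 and 16952 in I10. These were 541, 789, 558 and 937 CPM, both old tables above both young ones. Its log2 fold change of 0.65 (SE 0.14) exceeded the fold minimum, but its edgeR adjusted p of 0.0270 missed 0.01, while DESeq2's Wald test gave an adjusted p of 6.02e-04. SERPING1 (chr11:57364860-57386644 in GRCh37), the inhibitor of C1R and C1S, had 22.7 and 167 CPM in young and old I79 cells and 40.9 and 61.1 CPM in I10. It was higher in both old tables, by 7.35-fold in I79 (log2 2.88, exact 95% counting interval 2.72 to 3.04) and 1.49-fold in I10 (log2 0.58, interval 0.45 to 0.71). The spread between isolates was wide, and the joint log2 fold change of 1.71 (SE 0.57) did not pass (edgeR adjusted p = 0.0787).

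C3 (chr19:6677715-6730573 in GRCh37), the hub of the cascade, went opposite ways in the isolates. Its estimated counts were 106 (young) and 1467 (old) for I79 and 166 (young) and 70.2 (old) for I10. As CPM these were 6.79, 79.6, 8.66 and 3.88, so the young tables were alike and the old ones far apart. The ratio was 11.7-fold higher in I79 old (log2 3.55, exact 95% counting interval 3.27 to 3.85) and 2.24-fold lower in I10 old (log2 -1.16, interval -1.59 to -0.75). Over both isolates the log2 fold change was 1.40 (SE 1.22, edgeR adjusted p = 0.419). C3 overlaps GPR108 in the annotation, and GPR108 had 397 estimated counts in I79 young and 558 in I79 old.

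Of the 9 members, C1R had the smallest fitted difference. C1R (chr12:7187513-7245203 in GRCh37), a protease of the classical pathway, stood at 478 and 459.5 CPM in young and old I79 cells and 407 and 401 CPM in I10, a log2 fold change of -0.04 (SE 0.12, edgeR adjusted p = 0.820). C1S (chr12:7096351-7178336 in GRCh37) stood at 384, 492, 341 and 429 CPM in the same order, and its old tables were above the young one in each isolate. The C1S log2 fold change was 0.34 (SE 0.12, edgeR adjusted p = 0.0838). Both genes depended on the scaling. With plain library totals in place of TMM, the C1R log2 ratio of old over young was -0.22 in I79 and -0.28 in I10. For C1S it was 0.19 in I79 and 0.07 in I10. C1R overlaps C1RL and C1S overlaps LPCAT3, and the use of strand in counting was not given in the sources used here. For the alternative pathway, CFB (chr6:31913427-31919863 in GRCh37) had 232 and 250 estimated counts in young and old I79 cells and 318 and 205 in I10, a log2 fold change of -0.34 (SE 0.18, edgeR adjusted p = 0.199). CFD (chr19:859453-867884 in GRCh37) had only 11, 24, 16 and 14 estimated counts in the same order, and its log2 fold change of 0.39 (SE 0.49, edgeR adjusted p = 0.576) was not distinguishable from 0 at this depth. CFB overlaps C2 and a readthrough gene, and CFD overlaps MED16.

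Taken one isolate at a time, with no replicate and no test, a member was counted when its log2 ratio of CPM (prior count 2) exceeded 0.6. In I79, 4 of 9 members were higher in old cells (C3, CFD, CD55 and SERPING1), where 21.6% of all tested genes were, and 1 was lower (CFI), where 19.6% were. In I10, 2 of 9 were higher (CD55 and CD59), where 18.5% of tested genes were, and 2 were lower (C3 and CFI), where 18.8% were. CD55 and CFI were past the minimum in the same direction in both isolates. Using summed TPM or plain library totals in I10, CFB joined and CD59 left the members past the minimum.

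Between the isolates themselves, with age as the covariate, no member was called. Of 15115 genes, edgeR's quasi-likelihood test, with 1 residual degree of freedom, called 0 (0%). An unadjusted p under 0.05 was found for 577 of the 15115, which is no sign of a difference by itself. No other tool was run on this comparison. For the 9 members 0 had an unadjusted p under 0.05. C3 had the largest fitted difference among the members, a log2 fold change of -2.05 for I10 against I79 (SE 1.22, edgeR adjusted p = 0.959). The young tables of the isolates differed little for C3 (log2 ratio of I10 over I79 0.35, exact 95% counting interval -0.01 to 0.72), and the old tables differed by log2 -4.32 (interval -4.73 to -4.02). SERPING1 was higher in I10 young than in I79 young (log2 ratio 0.84) and lower in I10 old than in I79 old (log2 ratio -1.45).

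Transcript classes gave a second view of the same tables. CFI had protein-coding transcripts in both young tables, 87.9% of its summed TPM (the authors' measure of abundance per length) in I79 young and 92.2% in I10 young. In both old tables the 1 CFI transcript with any reads was a retained-intron form of 2368 bases, with 1 and 2.18 estimated counts, and all protein-coding CFI transcripts were listed at 0. CD55 was spread over several transcripts, and its protein-coding share of TPM was 95.1% and 92.7% in young and old I79 cells and 96.3% and 94.1% in I10. Its 2220-base form took 23.2% of CD55 TPM in I79 young and 31.5% in I79 old, and 20.98% and 22.4% in I10. CD59 kept 91.4% to 94.4% in protein-coding forms. SERPING1 had a share of transcripts annotated for nonsense-mediated decay, 24.6% and 18.0% in young and old I79 cells and 25.2% and 29.3% in I10. In C3 the 5263-base protein-coding transcript took 97.1% of the TPM in I79 old. None of these shares was tested, and for CFI and C3 in I10 they rest on few reads.

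**Figure D3:**
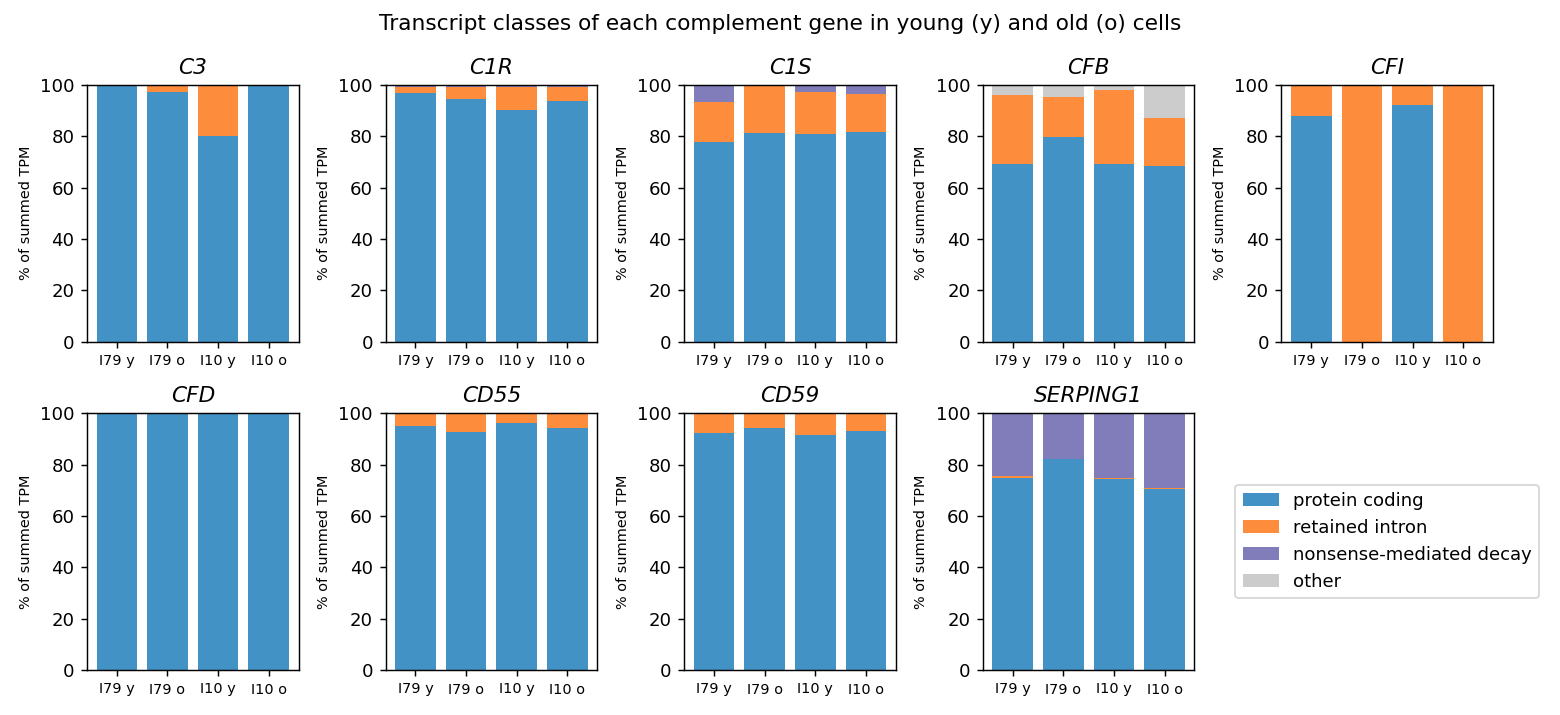
Share of the summed TPM of each complement gene that falls on protein-coding, retained-intron, nonsense-mediated decay and other transcripts, in % on an axis from 0 to 100, with 1 bar per table of young (y) and old (o) cells. Both CFI bars of old cells are retained intron throughout, resting on 1 and 2.18 estimated counts.

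The knockdown comparison asked whether lower HMGB2 alone goes with a change in these genes. By edgeR's quasi-likelihood test of 2 against 2 libraries, no member was called: 5 were tested, 0 passed in either direction, where 2.86% of the 15338 tested genes were called higher and 2.34% lower. Of the 5, 2 had an unadjusted p under 0.05, C3 and CD59, as did 3662 of the 15338 tested genes. The median log2 fold change of the 5 was -0.22, beside 0.00184 over all tested genes. The plot of WT and HMGB2 KD libraries shows C3, C1S and CD59 without overlap between groups, and CD55 and SERPING1 with overlap. How many of the 15338 tested genes were free of overlap was not counted. With 2 libraries against 2, lack of overlap only describes the plot and is no result about these members.

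**Figure D4:**
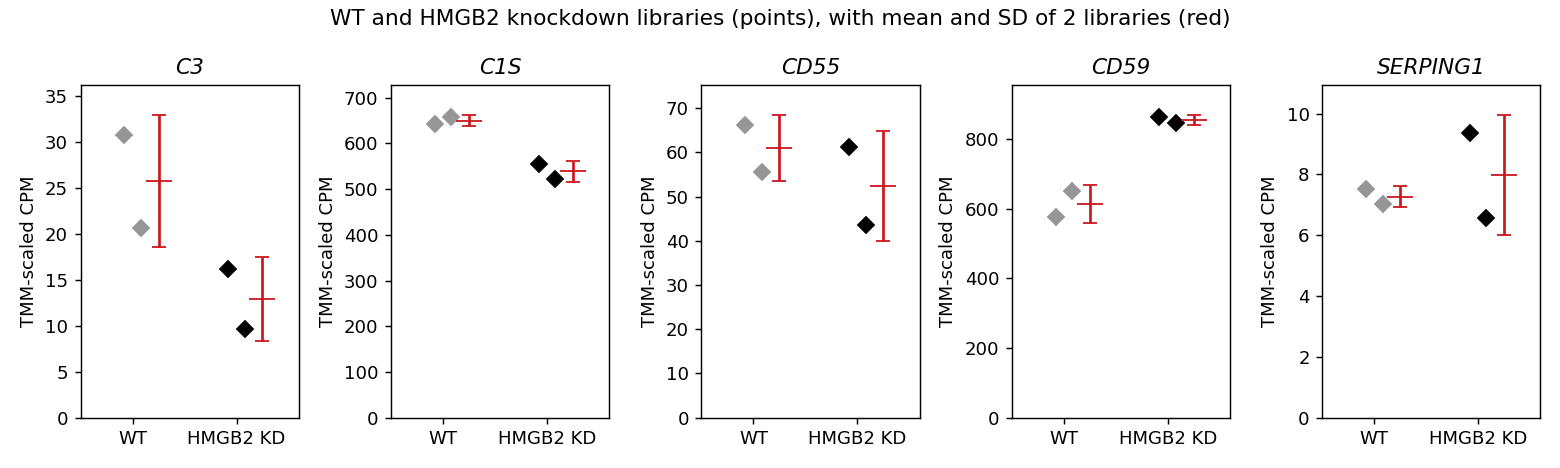
TMM-scaled CPM of the 5 tested complement genes in WT and HMGB2 KD libraries, with 1 point per library and the mean with its SD (n = 2) in red, on axes that start at 0. C3 is at 30.8 and 20.6 CPM in WT and 16.1 and 9.63 in HMGB2 KD, and CD59 is higher in both HMGB2 KD libraries.

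C3 had 1053 and 769 counts in WT and 590 and 384 in HMGB2 KD, a mean of 25.7 ± 7.18 CPM (SD, n = 2) against 12.9 ± 4.59 CPM (SD, n = 2). Its log2 fold change was -0.997 (SE 0.23, edgeR adjusted p = 0.0114), just outside the adjusted p threshold. A fit with 1 RUVs factor put C3 past it (log2 fold change -0.86, edgeR adjusted p = 3.14e-07). That factor was taken from the replicate differences of these same libraries, so this p is not separate support. DESeq2's Wald test also put C3 past the threshold (adjusted p = 0.00127). The edgeR adjusted p was 0.0502 without WT replicate 1 and 0.152 without HMGB2 KD replicate 2, and it was 6.36e-07 without WT replicate 2 and 0.00785 without HMGB2 KD replicate 1. CD59 stood at 574 and 651 CPM in WT and 864 and 845 in HMGB2 KD, a log2 fold change of 0.48 (SE 0.14, edgeR adjusted p = 0.0470) that stayed under the fold minimum. C1S stood at 642 and 658 CPM in WT and 555 and 523 in HMGB2 KD, with a log2 fold change of -0.27 (SE 0.14, edgeR adjusted p = 0.261). CD55 (66.2 and 55.7 CPM in WT, 61.2 and 43.7 in HMGB2 KD) had a log2 fold change of -0.22 (edgeR adjusted p = 0.460). SERPING1 (7.51 and 7.02 CPM in WT, 9.37 and 6.57 in HMGB2 KD) had a log2 fold change of 0.13 (edgeR adjusted p = 0.776). For CD55 and SERPING1 the sign turned when 1 HMGB2 KD library was left out.

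The ICM comparison asked how the members stood in chemically treated I79 cells. The ICM libraries were made and counted in another way than the old and young tables, so only ratios of CPM over the shared genes are given, with no test. Against I79 young, 2 of 9 members were higher past 0.6 (CD55 and SERPING1), where 30.0% of the 13942 genes compared were, and 5 were lower (C3, C1R, CFB, CFI and CFD), where 30.4% were. The median log2 ratio was -0.81 for the members and -0.04 for all genes compared. The same ratio for WT against I79 young is set beside the main values, because WT libraries carry no label of drug or age. These WT libraries themselves stood apart from I79 young, with log2 ratios of -2.23 for HMGB2, 1.66 for CDKN1A and -1.94 for LMNB1.

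CD55 had 73.6 and 77.3 CPM in the ICM libraries, 17.3 in I79 young and 131 in I79 old on this scale. The ICM libraries lay between the young and the old table, 4.34-fold above I79 young (log2 2.12, SD 0.05 over the 2 libraries) and 1.73-fold below I79 old. WT stood at log2 1.92 above I79 young for CD55, nearly as far as ICM did. SERPING1 had 86.5 and 90.8 CPM with ICM, 25.9 in I79 young and 169 in I79 old, a log2 ratio of 1.77 over young (SD 0.05), while WT stood at log2 -1.71. CD59 had 559 and 539 CPM with ICM against 617 in I79 young, a log2 ratio of -0.17 (WT at 0.11), and 60.6% and 58.6% of its ICM reads fell in the 3′ untranslated region. With ICM reads of the coding and noncoding regions alone, the CD59 ratio was log2 -1.41, past the fold minimum. That choice left out untranslated reads in the ICM libraries only, while the I79 young value kept the whole transcript. The -1.41 therefore compares unlike parts of the gene and is not a measure of a lower level. CFI had 10 and 13.8 reads with ICM, 0.777 and 1.302 CPM against 2.20 in I79 young and 0.0551 in I79 old. The CFI ratio was log2 -1.06 to I79 young (exact 95% counting interval -1.94 to -0.28) and log2 2.95 to I79 old (interval 1.597 to 9.58). These intervals, like those of the other ICM ratios, come from the pooled reads without the prior count of 2 that the ratios carry. With few reads, ratio and interval are therefore different estimates. The intervals hold counting error only, and the I79 old value rests on 1 read in a table counted another way. WT lay at log2 -3.70 to I79 young for CFI.

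C3 had 2 and 2 reads in the ICM libraries, 0.155 and 0.188 CPM, against 7.73 CPM in I79 young and 80.8 in I79 old. The log2 ratio to I79 young was -4.92 (exact 95% counting interval of the pooled reads -7.41 to -4.11) and to I79 old -8.29 (interval -10.8 to -7.53). ICM and old cells of the same isolate thus lay on opposite sides of the young level for C3, with WT at log2 1.81 above I79 young. C1R had 185 and 212 CPM with ICM against 545 in I79 young (log2 -1.46, SD 0.14). With ICM reads of the coding and noncoding regions alone, the C1R ratio was log2 -0.95. C1S had 397 and 438 CPM with ICM against 438 (log2 -0.07, SD 0.10, WT at 0.69). CFB had 30 and 19 reads with ICM, 2.33 and 1.79 CPM against 16.9 in I79 young (log2 -3.00, exact 95% counting interval -3.50 to -2.57). CFD had 4 and 6 reads, and its counting interval (log2 -2.31 to 0.46) included no change. Fibroblast markers summed to less in the ICM libraries than in the other groups, as given above, and its part in these ratios was not tested.

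**Figure D5:**
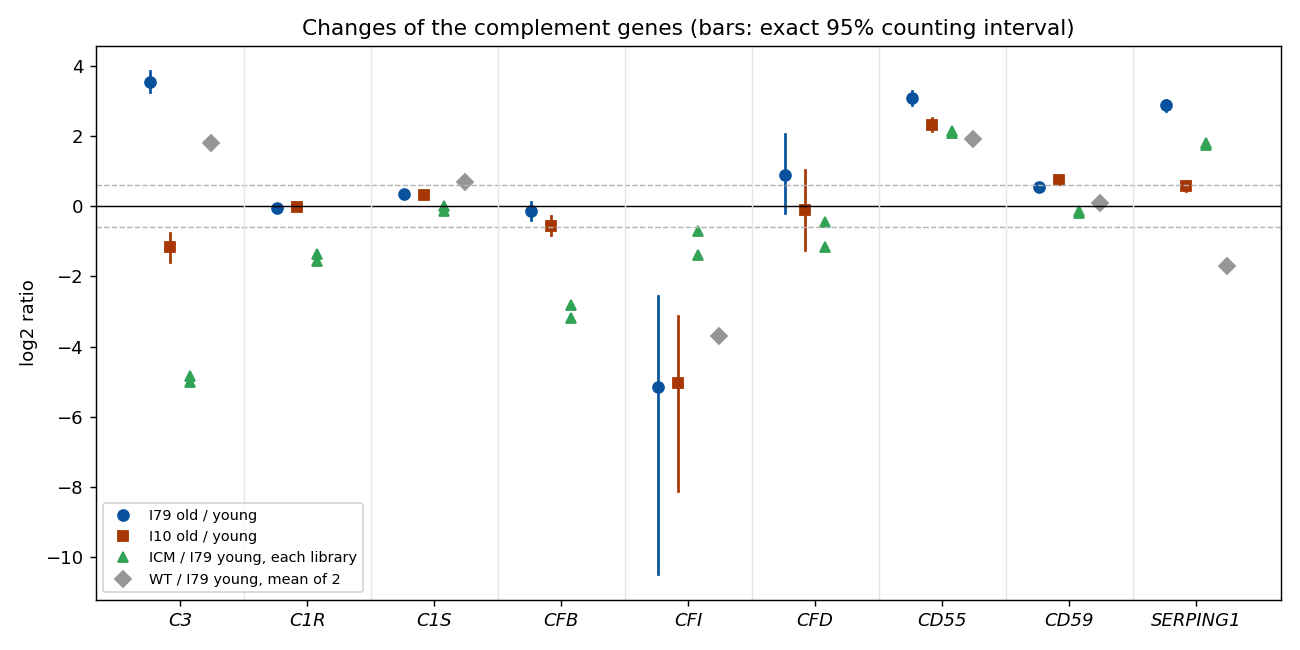
Log2 ratio of each complement gene for old over young cells of I79 and I10 (points with exact 95% counting intervals), for each ICM library over I79 young, and for WT over I79 young (mean of 2 libraries), with dashed lines at 0.6 and -0.6. C3 is at 3.55 in I79 old, -1.16 in I10 old and near -4.92 with ICM. No WT point is drawn for C1R, CFB and CFD, which were listed at or near 0 in WT.

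The wider complement list of 52 genes, which does not hold the 9 members, was counted the same way. Between old and young cells 17 of the 52 were tested and 3 were called higher and 2 lower (5.75% and 3.82% of all tested genes), with a median log2 fold change of -0.28 beside -0.01 over all genes. C7, a subunit of the membrane pore, rose, with 6.85 (young) and 199 (old) CPM for I79 and 6.83 and 61.0 for I10 (log2 fold change 4.01, SE 0.43, edgeR adjusted p = 0.00626). MASP1, a protease of the lectin pathway, rose from 69.5 to 256 CPM and from 57.8 to 388 CPM (log2 fold change 2.31, edgeR adjusted p = 0.00577). CD46, a surface cofactor of CFI, rose from 138 to 393 CPM and from 141 to 315 CPM (log2 fold change 1.33, edgeR adjusted p = 0.00593). COLEC12, a scavenger collectin, fell from 25.9 to 2.74 CPM and from 31.8 to 1.72 CPM (log2 fold change -3.69, edgeR adjusted p = 0.00417). C1QBP, which binds C1q, fell from 96.9 to 41.7 CPM and from 96.9 to 51.6 CPM (log2 fold change -1.06, edgeR adjusted p = 0.00692).

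In HMGB2 KD against WT, 19 of the 52 were tested, 0 were called higher and 3 lower (2.86% and 2.34% of all tested genes), with a median log2 fold change of -0.51 beside 0.00184. MASP1 stood at 12.6 and 20.2 CPM in WT and 7.27 and 7.98 in HMGB2 KD (log2 fold change -1.11, edgeR adjusted p = 0.00346). THBD stood at 5.11 and 3.38 CPM in WT and 1.69 and 0.752 in HMGB2 KD (log2 fold change -1.80, edgeR adjusted p = 0.00802). CD46 stood at 371 and 320 CPM in WT and 250 and 200 in HMGB2 KD without passing (edgeR adjusted p = 0.0172). Old and knockdown comparisons share no library. Of the abundant genes that passed neither test, CLU had 293 to 491 TMM-scaled CPM in the old, young, WT and HMGB2 KD libraries. The ICM libraries, which were counted in another way, had 2135 and 2178 CPM of CLU over the shared genes. On that shared scale the CLU log2 ratio of ICM to I79 young was 2.54, with no test. CALR, COLEC10 and C1RL also reached 10 CPM in a group, with no call in either test for CALR and COLEC10 and none for C1RL in old against young cells, the one test it entered.

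Of 23 genes that regulate complement transcription, 20 were tested in HMGB2 KD against WT and 2 were called lower and 0 higher, where 2.34% and 2.86% of all tested genes were. CEBPB, a transcription factor of the acute phase response, fell, with 769 and 580.1 CPM in the WT libraries and 385 and 393 in the HMGB2 KD ones (log2 fold change -0.79, SE 0.16, edgeR adjusted p = 0.00522). IL6R, a receptor of an acute phase cytokine, fell, with 23.2 and 29.5 CPM against 8.99 and 8.43 (log2 fold change -1.60, SE 0.16, edgeR adjusted p = 5.64e-05). In old against young cells 19 were tested, 1 was called higher and 0 lower, where 5.75% and 3.82% of all tested genes were. The gene called was NFKB2, which was higher at 60.9 against 22.1 CPM in I79 and 48.5 against 24.3 CPM in I10 (log2 fold change 1.23, SE 0.15, edgeR adjusted p = 0.00817). The median log2 fold change of the list was -0.26 in HMGB2 KD against WT, beside 0.00184 over all genes, and 0.36 in old against young cells, beside -0.01.

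Genes with the most similar pattern were found by Pearson's r of log2 CPM over 8 columns, the 4 old and young tables and the 4 WT and HMGB2 KD libraries, each kind centred on its own mean. Among 3074 genes with enough counts and spread, CD55 was closest to MXI1 (r = 0.997), MANBA (r = 0.996) and MOSPD1 (r = 0.995). SERPING1 was closest to EDA2R (r = 0.975), ADPRM (r = 0.971) and VWA5A (r = 0.967). C3 was closest to SLC6A15 (r = 0.982), BAG1 (r = 0.975) and IFI6 (r = 0.926), and CD59 to VIM (r = 0.992), KIF13A (r = 0.989) and FAM114A1 (r = 0.988). C1S was closest to SLC40A1 (r = 0.982), ETS2 (r = 0.976) and RFTN1 (r = 0.976). Between members, r was 0.896 for CD55 with SERPING1 and -0.0951 for C3 with CD59. The columns share tables, depth and the split of old from young, so these values only describe likeness.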

How the data were processed

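Poly(A) RNA-seq of IMR90 fibroblasts was analysed in 14 labelled samples. The old and young tables hold estimated counts and TPM per transcript as deposited by the authors, in the layout salmon writes, with 1 table per group. The tool is not given in the sources used here, nor is it stated whether replicates were pooled. The ICM files hold estimated counts per gene and region, deposited by the authors from libraries matched to ribosome profiling. The WT and HMGB2 KD files hold raw counts per gene as deposited, and the submitters' processing notes name STAR 2.6.0c, featureCounts and GRCh37. The 5 summary rows of these files, 16.9% to 18.0% of all counts, stayed out of library sizes and tests. The authors used RUVs and DESeq2, and the thresholds of their RNA-seq methods (adjusted p under 0.01 with a log2 fold change beyond 0.6 either way) were kept. An adjusted p under 0.05, which the study also names, was an alternative. A table of the authors' own comparisons was not used.

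Transcripts were matched to genes of GENCODE v44 lifted to GRCh37 on the unversioned identifier (97.7% of 205259), summed per gene and rounded. Tests used edgeR 4.0.16 in R 4.3.3 (TMM, filterByExpr, quasi-likelihood, Benjamini-Hochberg over all tested genes), with DESeq2 1.42.0 as an alternative, and were checked on simulated data. Ratios without a test used log2 CPM with a prior count of 2, except that old over young ratios printed with an interval carry no prior. Exact Clopper-Pearson counting intervals at 95% came from the counts without a prior. The ICM background used genes with 10 or more reads in I79 young or in both ICM libraries. Per-length levels divided by the mean effective length from the authors' tables. Where nothing says that replicates came from separate cultures, p-values measure only the spread between these samples. The members and lists were chosen with earlier results of these data known.

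Named genes were the 9 members, HMGB2, CDKN1A and LMNB1, other complement genes when called in a tested comparison or at 10 CPM or more in a group, regulators when called, and for each member with a mean of 100 or more counts in both kinds of table the 3 genes of highest Pearson r among those with the same mean and an SD of 0.3 or more. Values of some listed genes that meet this rule are not reported here, and the counts over the list include them.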

Additional observations from a re-analysis of the deposited data

Results flagged for a closer look

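For 2 members the change from young to old cells had opposite signs in the isolates. The difference between isolates was not tested, since each isolate has 1 table per age. C3 had a log2 ratio of old over young of 3.53 in I79 and -1.14 in I10, a difference of 4.67. CFD had a log2 ratio of 0.79 in I79 and -0.10 in I10, a difference of 0.89, and both CFD counting intervals included 0.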

How the results depend on the processing

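For HMGB2 KD against WT, the count of members called was 0, and it became 1 (C3) at an adjusted p under 0.05, with no filter on low counts, with DESeq2's Wald test and with 1 RUVs factor. Under these settings the calls over all genes also rose, from 797 to 1187, 1175, 944 and 1130 in that order. Leaving out 1 library gave 0 to 1. WT and HMGB2 KD share replicate numbers, but nothing says what a number stands for, and the deviations of equally numbered libraries correlated at r = 0.124 over 15338 genes. With the replicate number as a block, 1 member (C3) was called and 1243 genes in all, against 797 without the block. Without HMGB2 KD replicate 2 the total was 147. Over the left-out libraries CD55 ranged from -0.49 to 0.00917 and SERPING1 from -0.15 to 0.37. For old against young, the 2 members called became 5 with no filter on low counts (C3, CD59 and SERPING1 added) and 3 at an adjusted p under 0.05 (CD59 added), and the calls over all genes went from 1446 to 4265 with no filter and 3860 at an adjusted p under 0.05. For I10 against I79, no filter gave 1 member (C3) and 221 genes against 0. For ICM, the 7 members past 0.6 became 4 with WT as the reference, where C1R, CFB and CFD gave no value. They became 6 to 7 when 1 ICM library was left out. With ICM reads of the coding and noncoding regions alone they became 8, while I79 young kept whole transcripts. That region choice, made on 1 side of the ratio only, moved CD59 from -0.17 to -1.41, C1R from -1.46 to -0.95, C1S from -0.07 to 0.26 and CFI from -1.06 to -0.60. CFI turned to 2.64 with WT and 2.95 with I79 old as the reference, and CD55 and SERPING1 turned to -0.79 and -0.93 with I79 old. The cause of these changes was not tested. The share of all genes past 0.6 is given for the main ICM setting only. The member counts under the other ICM settings thus have no background beside them and are no result about the members. Values with few reads (CFI, CFD, C3 with ICM) are limited by depth.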
